A study of Mus musculus with 18 samples.

Results

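Organoids of the budding type that derive from iISCs, induced intestinal stem cells, (iISC organoids) were compared with induced hepatocyte-like cells (iHep cells), an intestinal and a hepatic outcome of fibroblast conversion. The arrays were chosen by their titles, and 6 of the 18 arrays of the series entered the comparison, 3 of iISC organoids and 3 of iHep cells. The series profiled mouse embryonic fibroblasts (MEFs), iHep cells and several kinds of intestinal organoid on single-colour Agilent whole mouse genome arrays, under the title of making intestinal progenitors from mouse fibroblasts. Every sample compared was of strain C57BL/6, and total RNA was amplified and labelled with Cy3. The iISC organoid samples are the cells that make up such organoids, numbered 1, 2 and 3 in the titles. The iHep cells are labelled as derived from MEFs and carry the codes 4α1, 4α2 and 4α3, which the labels do not explain, so the 3 arrays may stand for different conversions. They are called iHep 1, 2 and 3 here. The labels mark the iHep arrays as re-analysed, and do not list the transgenes of either cell type. Nothing in the labels says that the 3 samples of a group came from separate animals or cultures, so the p-values measure the spread between these samples, which may be technical.

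Liver and intestine both arise from the endoderm and share much of their gene control. Hnf4a and the Foxa factors act in both, while Cdx2 and Cdx1 direct the intestinal programme. Hepatocytes secrete most plasma proteins and carry out the urea cycle, gluconeogenesis and drug metabolism. The intestinal epithelium renews from Lgr5+ crypt stem cells into absorptive enterocytes and secretory Paneth, goblet, enteroendocrine and tuft cells, and enterocytes share several metabolic enzymes with the liver. In published conversion protocols, Hnf4a with a Foxa factor has been used to make hepatocyte-like cells from fibroblasts, and Hnf4a, Foxa3, Gata6 and Cdx2 to make intestinal progenitors.

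On iISC organoid arrays 56.1% to 62.9% of gene probes were well above background, against 61% to 63.6% on iHep arrays, and no gene probe was saturated on any of the 6. Levels are given as log2 signal minus the array's 75th percentile, so that 0 stands for the 75th percentile and each unit for a factor of 2. They are compared between groups for 1 gene at a time, never between genes, except that marker sums and list medians pool genes. Pairs of arrays within a group differed with an SD of 0.45 to 0.64 (log2) among the iISC organoids and 0.49 to 0.74 among the iHep cells, above the 0.084 to 0.11 that the spot noise gives. The 3 iISC organoid arrays lay on 1 slide read with scanner model G2505C, and the 3 iHep arrays on another read with model G2505B. The slide, the scanner and the cell type cannot be told apart, and no value within a slide could be had. In bulk samples, fewer cells of a type and less RNA per cell cannot be told apart either.

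Of 14234 genes tested with limma, 2786 (19.6%) were called higher in iISC organoids and 2636 (18.5%) lower, 5422 (38.1%) in all. A call needed a log2 difference of 1 or more in size and an adjusted p, by Benjamini-Hochberg, under 0.05. The groups' arrays did not overlap for 5402 of the 5422 called genes, so a lack of overlap adds little to a call. How often genes that were not called also lacked overlap was not counted. A gene dim on every array of 1 group was tested only through the other group, which nearly fixed its direction. Of 605 tested genes well above background on no iISC organoid array, 600 were called lower. Of 406 well above background on no iHep array, 399 were called higher. List counts that hold such genes are therefore not counts of genes free to go either way. The median log2 difference over all tested genes was 0.08. Scaling the arrays to their 7 bright spike-in controls in place of the 75th percentile, a choice made after seeing the data, moved that median to 0.95, a shift of 0.87, and called 6656 genes higher and 1672 lower. The share of calls that were higher was then 79.9%, against 51.4%. Counts for a list with spike-in scaling are to be set against 6656 higher and 1672 lower of 14234, not against 19.6% and 18.5%. The differences that follow are therefore relative to the bulk of the genes on each array, and lists whose reading changes with this scaling are named as such. Where no array of a group was well above background, only a minimum fold is given (written "at least"), from the bright group's mean against, per dim array, the higher of the dimmest reliably measured signal and the probe's own signal.

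**Figure D1:**
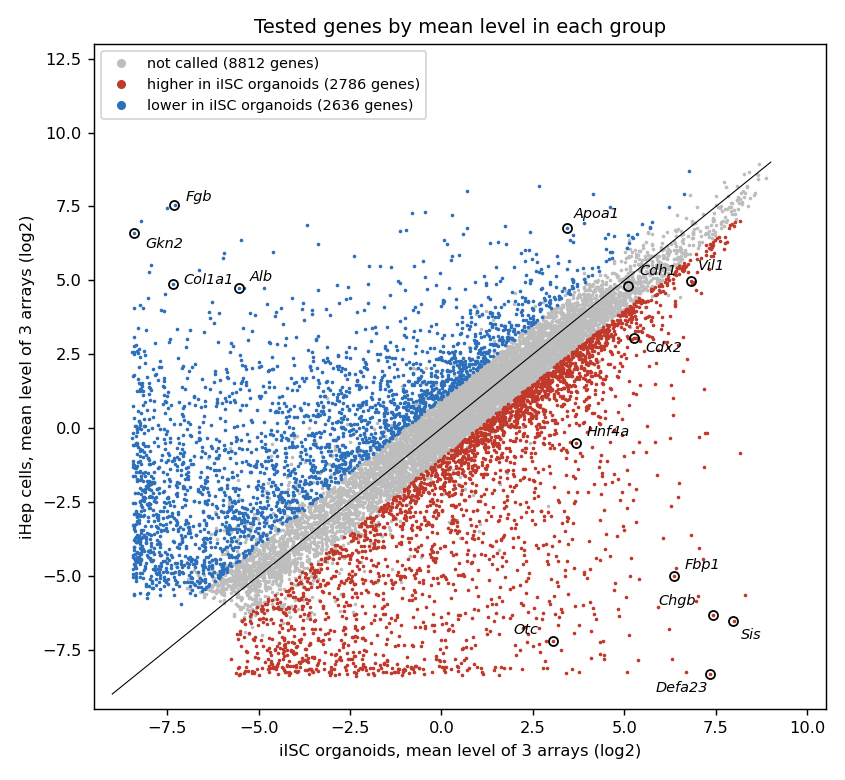
Mean level of each tested gene in iISC organoids (horizontal axis) and in iHep cells (vertical axis), both log2 signal minus the array's 75th percentile, with 3 arrays a group and 1 point a gene. Points in red (2786 genes) were called higher in iISC organoids and points in blue (2636) lower. Sis, Defa23 and Chgb lie at the lower right and Fgb, Gkn2 and Col1a1 at the upper left, while Cdh1 lies near the diagonal.

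The labelled cell types were first set against their defining markers. All 5 enterocyte markers (Sis, Alpi, Vil1, Fabp2, Apoa4), all 4 stem cell markers (Lgr5, Olfm4, Ascl2, Smoc2), both Paneth markers on the array (Lyz1, Mmp7), all 3 goblet markers (Muc2, Clca1, Fcgbp) and all 3 enteroendocrine markers (Chga, Chgb, Neurod1) were well above background on each iISC organoid array. All 5 hepatocyte markers on the array (Alb, Ahsg, Fgb, Ttr, Apoh) were well above background on each iHep array, against 2 of 5 on each iISC organoid array. On each iHep array, 2 of 5 enterocyte, 3 of 4 stem cell, 1 of 2 Paneth, 1 of 3 goblet and 0 of 3 enteroendocrine markers were well above background. The goblet markers summed, relative to the 75th percentile, to 23.8 to 49.2 on iISC organoid arrays and 39.8 to 143 on iHep arrays. Nearly all of the iHep sum was Clca1, while Muc2 was well above background on no iHep array. Fibroblast markers, outside the labelled types, were well above background on each array for 5 of 5 in iHep cells and 1 of 5 in iISC organoids. The 5 fibroblast markers (Col1a1, Col1a2, Col3a1, Thy1, Pdgfra) summed, on the linear scale relative to the 75th percentile, to 0.0691 to 0.125 on iISC organoid arrays and 29.4 to 80.5 on iHep arrays. In iISC organoids Col1a1, Thy1 and Pdgfra were not well above background on any array. The endothelial markers Pecam1, Cdh5 and Kdr were not well above background on any of the 6 arrays, nor was Ptprc, the pan-leukocyte marker. What part residual fibroblasts have in the differences was not tested.

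**Figure D2:**
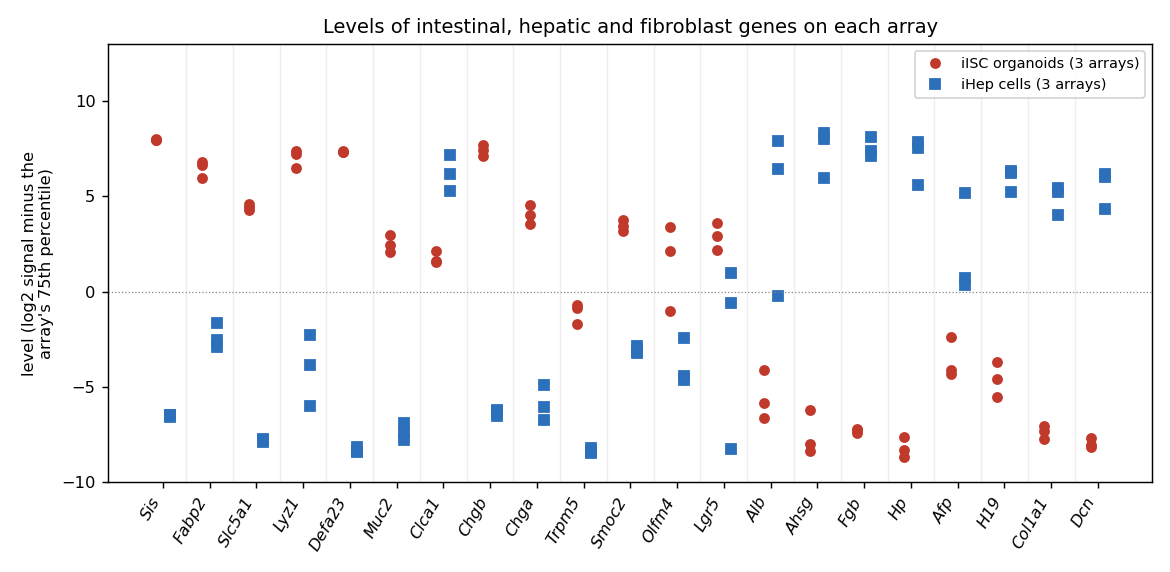
Level (log2 signal minus the array's 75th percentile, vertical axis) of 21 genes on each of the 3 iISC organoid arrays (red circles) and each of the 3 iHep arrays (blue squares). The intestinal genes at the left are higher on the red arrays except Clca1, the 3 Lgr5 values of iHep cells spread from 0.96 to -8.28, and the hepatic and fibroblast genes at the right are higher on the blue arrays.

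Of the 6 conversion factors of the published protocols and their Foxa relatives, 5 were called higher in iISC organoids and 0 lower. Hnf4a, the nuclear receptor named in both protocols, had levels of 3.49, 3.60 and 3.97 in iISC organoids, against -0.54, -2.58 and 1.57 in iHep cells. The groups did not overlap, and the log2 difference was 4.20 ± 1.01 (SE, adjusted p = 0.015). Foxa2 was at 3.78, 3.47 and 3.08 in iISC organoids, against -0.93, -7.65 and -8.29 in iHep cells, where iHep 1 alone was well above background (log2 difference 9.07 ± 1.96, adjusted p = 0.01). Foxa1 was low in iISC organoids, at -3.75, -3.88 and -3.36, against -3.06 in iHep 1 and values at background in iHep 2 (-8.12) and iHep 3 (-8.15), and it was not called (adjusted p = 0.14; called at 4.47, adjusted p = 0.00031, without iHep 1). Foxa3 was well above background on the iISC organoid arrays and on no iHep array, a difference of at least 68.4-fold (adjusted p = 1.3e-05). The intestinal master regulator Cdx2 was at 5.12, 5.18 and 5.52 in iISC organoids and was also measured in iHep cells, at 3.24, 2.32 and 3.59 (log2 difference 2.22 ± 0.35, adjusted p = 0.0034). Its paralog Cdx1 was at 0.83, 0.50 and 0.54 in iISC organoids and well above background on no iHep array (at least 102-fold, adjusted p = 5e-05). The endoderm factor Gata6 differed by 1.44 ± 0.23 (adjusted p = 0.0034). The array does not tell a transgene's transcript from the cell's own, and which of them these probes read was not tested.

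Among 21 intestinal transcription factors tested, 15 were called higher and 0 lower in iISC organoids, with a median log2 difference of 1.87. Besides Cdx1 and Gata6 these included Nr5a2, a nuclear receptor of the endoderm, at least 99.4-fold higher, Atoh1, which specifies secretory cells, at least 19.9-fold higher, and the epithelial Ets factor Ehf, higher by 6.28 ± 0.27 (log2). The 16 liver-enriched factors went the same way: 11 were called higher in iISC organoids, 0 lower, and 5 were not called, with a median of 2.77. Foxa2 and Foxa3, reported above among the conversion factors, are counted again here, so the lists are not separate. Creb3l3, a factor of lipid and fasting metabolism in both organs, was higher by 8.73 ± 1.16 (adjusted p = 0.0019), and the bile acid receptor Nr1h4 by 7.30 ± 1.43 (adjusted p = 0.0073). The liver factors Prox1, Hhex and Onecut1, named after their values were seen, were not called (adjusted p = 0.82, 0.11 and 0.62).

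Enterocyte genes gave some of the largest differences. Sis, the sucrase-isomaltase of the brush border, was at 8.03, 7.96 and 7.95 in iISC organoids, against -6.60, -6.49 and -6.46 in iHep cells, where no array was well above background. This is a difference of 16728-fold or more (adjusted p = 4e-07). The starts of Sis, Vil1, Alb, Ahsg and Fgb were searched for 4 motifs, and only those that held a match are printed. These are Sis, and Alb and Fgb, plasma protein genes that went the other way. The sequences are RefSeq's for build GRCm38.p6, 250 bases before to 50 after the start, 5′ to 3′ on the gene's strand. Capitals mark matches on either strand to TTTATNG (Cdx), GTTAAT (Hnf1), CAAAGTCCA (Hnf4) or TGTTTAC (Foxa).
Sis, chr3:72967814-72968113, minus strand: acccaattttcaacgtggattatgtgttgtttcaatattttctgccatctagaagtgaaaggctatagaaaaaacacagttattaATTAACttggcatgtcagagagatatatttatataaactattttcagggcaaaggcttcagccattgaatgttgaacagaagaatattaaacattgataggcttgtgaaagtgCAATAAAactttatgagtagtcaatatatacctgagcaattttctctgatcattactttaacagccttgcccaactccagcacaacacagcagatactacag
Alb, chr5:90460620-90460919, plus strand: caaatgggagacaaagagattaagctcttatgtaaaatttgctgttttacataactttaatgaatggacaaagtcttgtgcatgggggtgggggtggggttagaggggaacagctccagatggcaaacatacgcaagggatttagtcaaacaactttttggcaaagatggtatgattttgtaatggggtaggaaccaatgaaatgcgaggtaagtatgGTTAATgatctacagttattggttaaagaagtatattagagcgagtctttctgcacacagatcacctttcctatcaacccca
Fgb, chr3:83049814-83050113, minus strand: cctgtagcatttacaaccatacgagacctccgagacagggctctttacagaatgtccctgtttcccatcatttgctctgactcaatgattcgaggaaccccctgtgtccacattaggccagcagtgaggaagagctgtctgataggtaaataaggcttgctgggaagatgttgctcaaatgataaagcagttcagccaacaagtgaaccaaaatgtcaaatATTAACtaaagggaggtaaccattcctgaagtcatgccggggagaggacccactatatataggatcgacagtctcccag
The Sis window held 1 Hnf1 match, at -165 to -160 from the start site, and 1 Cdx match at -52 to -46. Alb held 1 Hnf1 match at -32 to -27 and Fgb 1 at -29 to -24, and neither held a Cdx match. The windows of Vil1 and of the plasma protein gene Ahsg were searched too, held 0 matches to the 4 motifs and are not printed. The same letters were found in 7.1% (Hnf1), 10.9% (Cdx), 0.475% (Hnf4) and 3.65% (Foxa) of all 32851 promoter windows of that length. A match is a description of the sequence, and no binding was measured.

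Of 14 brush border hydrolases tested, 13 were called higher in iISC organoids and 1 lower, with a median log2 difference of 7.69 (7.13 with genes below background in iHep cells set to their bound). Mgam, the maltase-glucoamylase, was higher by 12.81 ± 0.24, Enpep, an aminopeptidase, by at least 696.5-fold and the metalloprotease Mep1b by at least 474.8-fold. Ace, the angiotensin-converting enzyme, was the member called lower, at -2.96, -3.76 and -3.15 in iISC organoids, against -2.80, -2.29 and -1.77 in iHep cells (adjusted p = 0.046). Its call was lost in 5 of the 6 fits that left out 1 array, the exception being the one without iHep 1, and with spike-in scaling (log2 difference -0.13). Of 16 microvillus genes 12 were called higher and 1 lower, with a median of 2.04. Vil1, the actin bundler villin, was at 6.93, 6.58 and 6.91 in iISC organoids, against 3.84, 4.86 and 6.28 in iHep cells (log2 difference 1.82 ± 0.60, adjusted p = 0.045). The groups did not overlap, but the call held without iHep 3 and was lost in the other 5 fits that left out an array (adjusted p up to 0.11). Pdzk1, a scaffold of apical transporters, was at least 267.2-fold higher, and Ush1c, which links microvilli, differed by 8.40 ± 0.50. Baiap2l1 was called lower (-1.44 ± 0.28, adjusted p = 0.0075), not so with spike-in scaling (-0.57).

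Transporters of nutrients followed: 18 of 22 were called higher, 0 lower, with a median of 4.94. Slc5a1, the apical sodium-glucose carrier, was at 4.45, 4.29 and 4.61 in iISC organoids and well above background on no iHep array, at least 1448-fold higher (adjusted p = 1.3e-06). The glucose carrier Slc2a2, which hepatocytes also use, was at 2.00, 1.02 and 1.29 in iISC organoids, against -7.95, -8.29 and -8.33 in iHep cells. The proline transporter Slc6a20a was at least 197.4-fold higher. Of 22 lipid absorption and apolipoprotein genes, 14 were called higher and 2 lower. The sterol importer Npc1l1 was at least 789.4-fold higher, the sterol exporter Abcg5 was higher by 10.16 ± 0.47, and the chylomicron apolipoprotein Apoa4 by 10.23 ± 0.70. The 2 members called lower were Apoa1 and Apoe. Apoa1, the main protein of high-density lipoprotein, was at 2.93, 3.79 and 3.54 in iISC organoids, against 7.35, 7.26 and 5.67 in iHep cells (log2 difference -3.34 ± 0.51, adjusted p = 0.0031). Apoe was lower by -7.49 ± 1.00 (adjusted p = 0.0019). All 5 tested ileal bile acid genes were higher: the apical carrier Slc10a2 by 7.44 ± 0.97, the basolateral carrier chains Slc51a by 8.82 ± 1.02 and Slc51b by at least 303.3-fold, the receptor Nr1h4 by 7.30 ± 1.43, and Fgf15, the hormone it induces, by at least 11.8-fold.

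**Figure D3:**
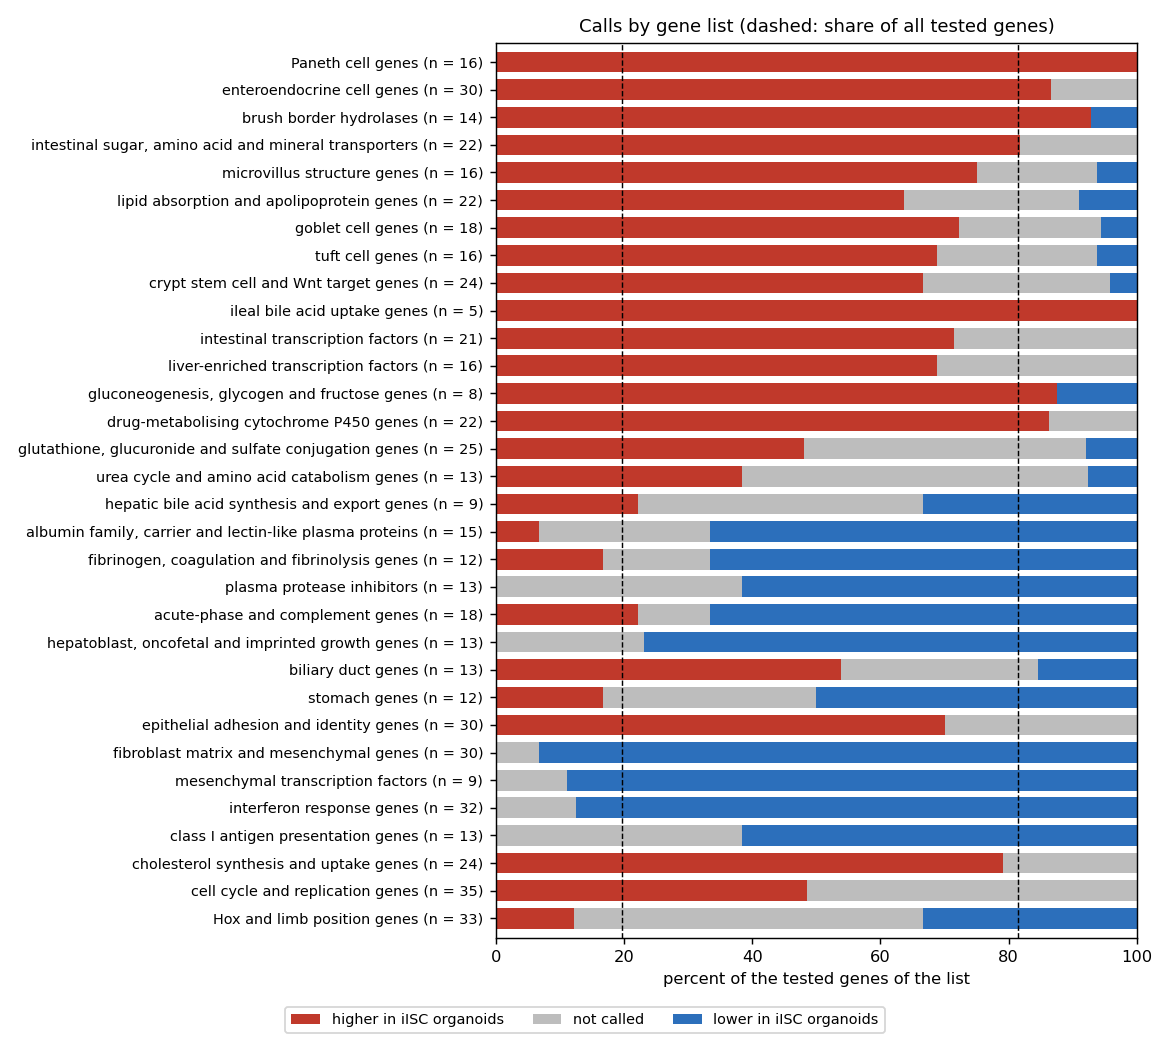
Share of the tested genes of each list (horizontal axis, percent, the number tested in brackets) called higher in iISC organoids (red, left), not called (grey) and lower in iISC organoids (blue, right). The dashed lines give the shares over all tested genes, 19.6% higher and 18.5% lower. Intestinal lists, liver-enriched factors, glucose genes and P450 genes are mostly red, and plasma protein, oncofetal, fibroblast and interferon lists are mostly blue.

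Genes of the secretory lineages of the gut were measured in iISC organoids. All 16 Paneth cell genes on the array were called higher, with a median log2 difference of 9.19 (8.12 with bounds). Of these, 7 were well above background on no iHep array, which nearly fixed their direction. Defa23, an α-defensin, was at 7.32, 7.36 and 7.33 in iISC organoids, against -8.13, -8.38 and -8.43 in iHep cells, where no array was well above background (at least 10683-fold higher, adjusted p = 4e-07). Defa21 and Defa22 were at least 6753-fold and 2238-fold higher, and Defa20 was higher by 13.93 ± 0.24. These defensins are near-identical copies, so their probes may share signal. Lyz1, the Paneth lysozyme, was at 7.39, 7.24 and 6.47 in iISC organoids, against -3.87, -2.26 and -6.02 in iHep cells (log2 difference 11.08 ± 0.94), and the lectin Itln1 was at least 4876-fold higher. On the MEF arrays Lyz1 was at 3.27, 3.69 and 3.66, well above background on each. Its signal was thus not confined to intestinal samples. The MEF levels were not tested.

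Enteroendocrine genes, which make and pack gut hormones, were called higher for 26 of 30 members, with a median of 5.29 (4.49 with bounds), and 0 were lower. Of those tested, 12 were well above background on no iHep array, which nearly fixed their direction. Chgb, a granin of secretory granules, was at 7.11, 7.72 and 7.43 in iISC organoids and not well above background in iHep cells, at least 11328-fold higher (adjusted p = 2.2e-06). Chga, the other granin used as a marker, was higher by 9.95 ± 0.52. Among the hormones, Cck was higher by 10.76 ± 0.15 and Gip by at least 640.7-fold. Of 16 tuft cell genes 11 were called higher and 1 lower. The taste channel Trpm5 was at least 31.1-fold and Rgs13 at least 71.4-fold higher, while Pou2f3, a factor that specifies tuft cells, was well above background on none of the 6 arrays. Ptgs1, a cyclooxygenase, was the member called lower, at -1.55, -0.42 and -1.93 in iISC organoids, against 1.47, 0.72 and 4.30 in iHep cells (adjusted p = 0.027, up to 0.081 in the 3 fits that lost the call, without iISC organoid 1, iISC organoid 3 or iHep 1).

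Goblet cell genes divided within the list. Of 18 tested, 13 were called higher, 1 lower and 4 were not called, with a median of 3.05. Muc2, the gel-forming mucin, was at 2.43, 2.95 and 2.10 in iISC organoids and not well above background in iHep cells (at least 372.7-fold, adjusted p = 1.4e-05). Agr2, a disulfide isomerase needed for mucin, was higher by 9.77 ± 1.07, Klk1 by at least 273.1-fold and Tpsg1 by 9.19 ± 1.09. Clca1, a secreted goblet protein, was the reverse, at 1.63, 2.14 and 1.54 in iISC organoids, against 5.31, 7.15 and 6.18 in iHep cells (log2 difference -4.44 ± 0.48, adjusted p = 0.00089). The trefoil peptide Tff3 was measured in both, at 6.83, 6.97 and 6.55 in iISC organoids and 7.80, 6.85 and 9.01 in iHep cells, and was not called (adjusted p = 0.13). Zg16, a goblet lectin, was likewise measured in both groups and not called (4.23, 5.98 and 5.38 in iISC organoids, 6.62, 3.38 and 5.31 in iHep cells). Tff3 and Zg16 were named after their values were seen.

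Crypt stem cell and Wnt target genes were called higher for 16 of 24 members and lower for 1, with a median of 3.61 (3.21 with bounds). Smoc2 was at 3.78, 3.45 and 3.18 in iISC organoids, against -2.85, -3.11 and -3.22 in iHep cells (log2 difference 6.52 ± 0.20, adjusted p = 1.3e-05). The Wnt feedback genes Rnf43 and Axin2 were higher by 7.24 ± 0.66 and 5.73 ± 1.09, and the water channel Aqp4 by at least 111.4-fold. Olfm4 varied among the organoids, at 3.39, 2.13 and -1.02, against -2.42, -4.62 and -4.43 in iHep cells (adjusted p = 0.014). Lgr5, the receptor that marks crypt stem cells, was at 3.63, 2.90 and 2.20 in iISC organoids. In iHep cells it was well above background on 2 of 3 arrays, at -0.58 and 0.96, and at background in iHep 3 (-8.28), and it was not called with 3 arrays a group (log2 difference 5.54 ± 2.40, adjusted p = 0.095). Without iHep 3 it was called, at 2.72 (adjusted p = 0.019). The hyaluronan receptor Cd44 was the member called lower, by -1.52 ± 0.36 (adjusted p = 0.015), and not with spike-in scaling (-0.65).

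Genes for secreted plasma proteins were higher in iHep cells. Over 4 lists (carriers, coagulation, protease inhibitors, acute phase and complement) 58 genes were tested, and 38 (65.5%) were called lower in iISC organoids, 7 higher and 13 not called, with a median log2 difference of -4.46 (-4.05 with bounds). Another 22 were on the array and not tested, 10 of them well above background on none of the 6 arrays. Hp, haptoglobin, was well above background on no iISC organoid array and at 7.55, 7.86 and 5.58 in iHep cells (at least 8859-fold lower in iISC organoids, adjusted p = 3.6e-05). Fgb, the fibrinogen β chain, was at -7.22, -7.26 and -7.40 in iISC organoids, none well above background, against 7.38, 8.13 and 7.13 in iHep cells (at least 12973-fold lower). Ahsg, fetuin A, was well above background in 1 iISC organoid array and at -6.21, -7.98 and -8.35, against 8.02, 8.32 and 5.98 in iHep cells (log2 difference -14.95 ± 0.83).

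Albumin varied among the iHep arrays. Alb was at -4.11, -6.63 and -5.84 in iISC organoids, against 6.46, 7.92 and -0.20 in iHep cells, so that the groups did not overlap and iHep 3 lay far below the other iHep arrays (log2 difference -10.25 ± 2.17, adjusted p = 0.0097). Afp, the fetal counterpart, was at -4.11, -4.33 and -2.38 in iISC organoids, against 0.70, 5.18 and 0.34 in iHep cells (adjusted p = 0.016, and up to 0.053 without iISC organoid 1 or 2, where the call was lost). Among the 38 secreted genes called lower, the highest iHep value was that of iHep 2 for 28 genes and the lowest that of iHep 3 for 25. Kng1, the kininogen, was at least 2727-fold lower in iISC organoids, the complement protease Masp1 at least 1244-fold, the heme carrier Hpx at least 693.1-fold and the C1 inhibitor Serping1 at least 71.5-fold. Masp1 and Serping1 were also measured in MEFs, at 3.56 to 4.03 and 0.37 to 0.80, beside means of 4.16 and 0.05 in iHep cells. Hpx was at -3.39 to -2.88 and Kng1 at -2.78 to -1.54 in MEFs, below their means of 3.32 and 5.30 in iHep cells.

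Some acute-phase genes were measured on a single organoid array. Cp, the copper oxidase ceruloplasmin, was at -8.01, -7.99 and -1.83 in iISC organoids, against 6.14, 6.28 and 5.38 in iHep cells. Lbp, the endotoxin-binding protein, was at -7.83, -7.40 and -2.71 in iISC organoids, against 5.47, 5.76 and 6.01 in iHep cells. Lcn2, an iron-sequestering lipocalin, was at -7.41, -7.93 and -3.60 in iISC organoids, against 4.33, 4.27 and 2.55 in iHep cells. In each, iISC organoid 3 alone was well above background in its group and the groups did not overlap (adjusted p = 0.0025, 0.0012 and 0.0014). C3, the central complement protein, was higher in iHep cells on each array (log2 difference -7.68 ± 0.91). The 7 genes called higher in iISC organoids were the α1-microglobulin precursor Ambp (4.71 ± 1.00), prothrombin F2 (2.24 ± 0.60), protein C, Proc (3.04 ± 0.24), the complement genes C4bp (6.04 ± 0.59), C8g (1.38 ± 0.33) and Cfi (3.71 ± 0.80), and the lectin Mbl2 (at least 22.3-fold). The call of F2 was lost in 4 of the 6 fits that left out an array (without iISC organoid 2 or 3, or iHep 1 or 2, adjusted p up to 0.069), and that of C8g with normexp background correction (0.69). C4bp was at 5.08, 4.78 and 5.83 in iISC organoids and well above background on all 6 arrays.

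Several lists of metabolic liver genes had more members higher in iISC organoids than lower. Of 8 tested genes of gluconeogenesis, glycogen and fructose use, 7 were called higher in iISC organoids and 1 lower, with a median log2 difference of 5.09. Fbp1, fructose bisphosphatase, was at 6.89, 6.25 and 5.91 in iISC organoids, against -5.17, -4.16 and -5.73 in iHep cells (log2 difference 11.37 ± 0.46, adjusted p = 2.8e-05). The pyruvate kinase Pklr was higher by 8.59 ± 0.17, and G6pc, the phosphatase that releases glucose, by 5.81 ± 0.40. Pygl, liver glycogen phosphorylase, was the member called lower (-2.69 ± 0.23, adjusted p = 0.00039).

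Urea cycle and amino acid genes were called higher for 5 of 13 tested members and lower for 1, and 7 were not called (9 higher and 1 lower with spike-in scaling). Cps1, which makes carbamoyl phosphate, was at 4.17, 4.39 and 3.09 in iISC organoids, against -7.92, -2.45 and -4.29 in iHep cells (log2 difference 8.77 ± 1.38, adjusted p = 0.0034). Otc, which turns it into citrulline, was at 2.70, 3.20 and 3.24 in iISC organoids, against -7.91, -5.41 and -8.27 in iHep cells (10.25 ± 0.77, adjusted p = 0.00025). Both enzymes are also known from small intestinal enterocytes. On the 3 arrays of organoids grown from crypts, Cps1 lay between 4.86 and 5.59 and Otc between 2.97 and 3.47. Nags, whose product activates Cps1, was higher by 8.36 ± 1.00, and the aminotransferase Agxt by at least 59.3-fold. Fah, the last enzyme of tyrosine breakdown, was lower, at -4.27, -2.41 and -3.06 in iISC organoids, against 1.05, 1.62 and 1.06 in iHep cells (adjusted p = 0.00094). Another 10 members were not tested.

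Drug-metabolising cytochrome P450 genes were called higher in iISC organoids for 19 of 22 members and lower for 0, with a median of 5.02 (4.32 with bounds). Cyp2c40 was at 4.63, 4.59 and 4.10 in iISC organoids and at least 1438-fold higher than in iHep cells, where it was well above background on no array. Cyp2c55 was higher by 8.37 ± 0.31, Cyp2d26 by 7.42 ± 1.32 and Cyp3a25 by at least 63.3-fold. Closely related P450 copies may share probe signal. Of 25 conjugation genes 12 were called higher, 2 lower and 11 not called (20 higher and 2 lower with spike-in scaling). The sulfotransferases Sult1d1 and Sult1b1 were higher by 9.68 ± 0.89 and 8.44 ± 0.72 and the glucuronosyltransferases Ugt2b36 and Ugt2b5 by at least 141.4-fold and 97.1-fold. Sult1a1, also a sulfotransferase, was lower by -6.26 ± 0.27 and the epoxide hydrolase Ephx1 by -2.62 ± 0.37.

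Hepatic bile acid genes showed no common direction: of 9 tested, 2 were called higher, 3 lower and 4 not called (5 higher and 2 lower with spike-in scaling). These are 22.2% higher and 33.3% lower, against 19.6% and 18.5% of all tested genes, few genes to set against those shares. Abcc2, the canalicular export pump that is also found on enterocytes, was at least 217.1-fold higher and Slc27a5, which activates bile acids, at least 4.1-fold (0.52 on the log2 scale and not called with normexp). Cyp27a1 and Cyp7b1, hydroxylases of the acidic pathway, were well above background on no iISC organoid array and at least 123.7-fold and 66.1-fold lower. Cyp7a1, the rate-limiting enzyme of the classic pathway, and Slc10a1, the hepatocyte uptake carrier, were well above background on none of the 6 arrays.

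**Figure D4:**
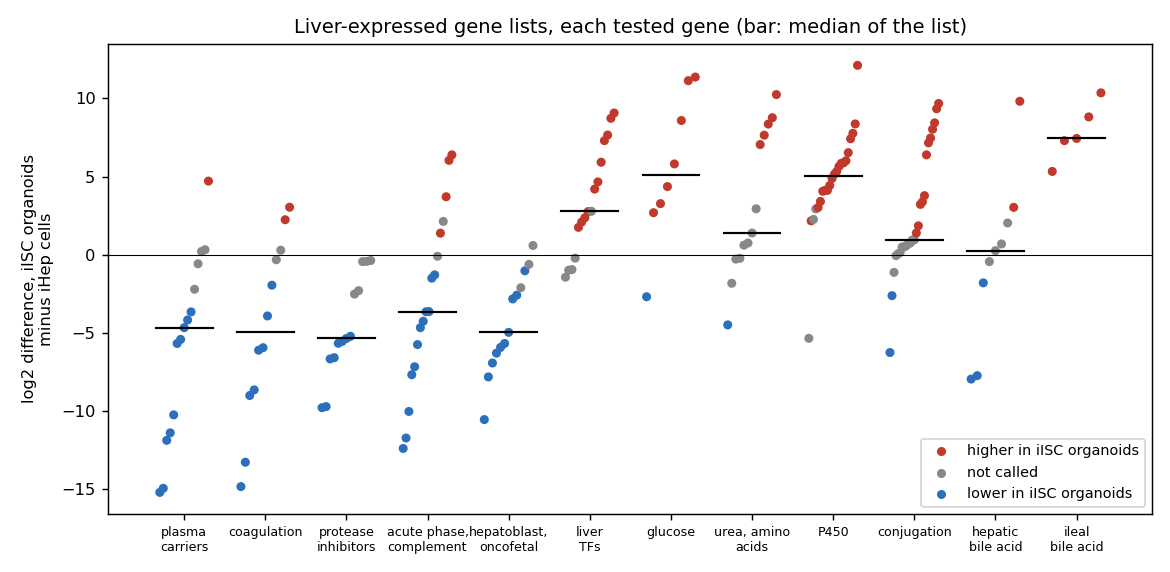
Log2 difference, iISC organoids minus iHep cells (vertical axis), of each tested gene in 12 lists of liver-expressed genes, 1 point a gene, with the list median as a bar and 3 arrays a group. Medians of the 4 secreted protein lists and the oncofetal list lie between -3.64 and -5.36, and those of the factor, glucose, P450 and ileal bile acid lists between 2.77 and 7.44.

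Fetal and oncofetal growth genes were higher in iHep cells: 10 of 13 were called lower in iISC organoids and 0 higher, with a median of -4.97 (8 lower and 1 higher with spike-in scaling). H19, an imprinted noncoding RNA, was at -4.60, -5.53 and -3.69 in iISC organoids, against 6.24, 6.34 and 5.25 in iHep cells (log2 difference -10.55 ± 0.54, adjusted p = 6.5e-05). Igf2bp1, a fetal RNA-binding protein, was lower by -7.82 ± 0.89, and the imprinted gene Mest by -6.93 ± 0.69. Igf2, the growth factor imprinted beside H19, was at -1.31, -2.77 and 4.27 in iISC organoids, against 6.42, 6.40 and 6.28 in iHep cells. iISC organoid 3 stood apart from the other organoid arrays. The call (adjusted p = 0.027) was kept without that array, with a log2 difference of -8.41, and lost in the other 5 fits (adjusted p up to 0.081). MEFs also had these genes, with array medians of the list of -2.68 to -1.67 in iISC organoids, 0.96 to 2.03 in iHep cells and 3.10 to 3.20 in MEFs. Igf2bp1 lay between 1.45 and 1.75 and Mest between 4.51 and 5.73 in MEFs, above their means in iHep cells of 1.06 and 0.76. The levels in MEFs were not tested.

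Lists for neighbouring endoderm organs were mixed. Of 13 biliary duct genes, 7 were called higher in iISC organoids and 2 lower (11 and 1 with spike-in scaling). These are 53.8% higher and 15.4% lower, against 19.6% and 18.5% of all tested genes. Anxa13, an annexin of apical membranes, was higher by 12.69 ± 0.37, the water channel Aqp1 by 9.58 ± 0.67 and Tm4sf4 by 8.80 ± 0.59. Spp1, osteopontin, was at -8.54, -7.89 and 0.19 in iISC organoids, against 5.23, 4.84 and 4.15 in iHep cells (adjusted p = 0.013), again with iISC organoid 3 alone well above background in its group. The ductal keratin Krt19 was high in both, at 7.05, 7.47 and 7.80 in iISC organoids and 7.18, 6.69 and 7.21 in iHep cells, and was not called (adjusted p = 0.21). It was named after its values were seen.

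Of 12 stomach genes, 6 were called lower in iISC organoids and 2 higher (4 lower and 3 higher with spike-in scaling). The higher share, 16.7%, is near the 19.6% of all tested genes, and the lower share is 50% against 18.5%. Gkn2, a gastrokine of the gastric surface, was well above background on no iISC organoid array and between 5.78 and 7.01 in iHep cells, at least 6715-fold lower (adjusted p = 8.1e-06). Tff1, the gastric trefoil peptide, was at -4.06, -4.67 and -1.43 in iISC organoids, against 4.88, 5.65 and 8.17 in iHep cells (log2 difference -9.62 ± 1.17), and Psca was lower by -6.68 ± 0.39. Gkn3 was called higher (2.15 ± 0.40), and not with 17 samples in 1 fit (adjusted p = 0.055). Of 7 colon and hindgut genes 3 were called higher and 0 lower, and 1 higher with normexp. B3galt5 was at least 23.4-fold and the carbonic anhydrase Car4 at least 3.7-fold higher.

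Fibroblast genes separated the groups. Of 30 tested, 28 were called lower in iISC organoids and 0 higher, with a median of -8.24 (-7.06 with bounds). Of those tested, 18 were well above background on no iISC organoid array. These 18 were tested only through the iHep arrays, which nearly fixed their direction. Col1a1, the main collagen chain, was at -7.03, -7.71 and -7.30 in iISC organoids, against 5.21, 5.45 and 4.02 in iHep cells, at least 2061-fold lower. On the MEF arrays it lay between 7.10 and 7.46. Dcn, a matrix proteoglycan, was at least 3168-fold lower, fibronectin Fn1 at least 1617-fold and Mgp at least 1115-fold. Mesenchymal transcription factors were called lower for 8 of 9 members, among them Snai2 (at least 231.1-fold), Snai1 (at least 116.8-fold), Zeb1 (at least 67.2-fold) and Prrx2 (-9.02 ± 0.58). Smooth muscle contractile genes were called lower for 7 of 9 members, and for 4 with spike-in scaling. Cald1 was at least 131.5-fold and Cnn1 at least 90.1-fold lower, and Tpm2 was lower by -8.36 ± 0.68.

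Epithelial genes were called higher in iISC organoids for 21 of 30 members and lower for 0, with a median of 2.19. Cdh1, E-cadherin, was not among them, at 5.01, 4.96 and 5.32 in iISC organoids and 4.63, 4.59 and 5.21 in iHep cells (log2 difference 0.29 ± 0.22, adjusted p = 0.3; -0.06 with quantile normalization and 1.16 with spike-in scaling, adjusted p = 0.0081). Among the largest called differences, Cldn15, which forms pores for sodium in the gut, was at 5.45, 5.33 and 5.41 in iISC organoids, against -5.38, -4.53 and -5.37 in iHep cells (10.49 ± 0.26). Cldn7 was higher by 5.84 ± 0.68, the sorting adaptor Ap1m2 by 5.80 ± 0.55 and the small GTPase Rab25 by 5.72 ± 0.74.

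Position genes of the limb and trunk, which fibroblasts keep from their place of origin, differed by cluster. Of 33 Hox and limb genes tested, 11 were called lower in iISC organoids, 4 higher (Hoxa2, Hoxa9, Hoxa10 and Tbx3) and 18 not called (10 lower and 9 higher with spike-in scaling). Lower calls made up 33.3%, against 18.5% of all tested genes. Higher calls made up 12.1%, a smaller share than the 19.6% of all tested genes. The call of Hoxa2 (2.04, adjusted p up to 0.06) was lost without iISC organoid 1 or 2, and that of Tbx3 (2.37, adjusted p up to 0.065) without iISC organoid 1 or 2 or iHep 1 or 2. All 6 tested HoxC genes were lower. Hoxc9 was well above background on no iISC organoid array and at 1.78, 1.08 and -1.81 in iHep cells (at least 88.4-fold lower, adjusted p = 0.00086), and Hoxc6 was lower by -7.80 ± 1.22. The limb factors Tbx5 (at least 53.5-fold) and Pitx1 (-7.56 ± 1.78) were lower too. With a replicate block the call of Pitx1 was lost (adjusted p = 0.055). Outside these groups, Pitx1 was at 1.68 to 2.05 in MEFs and 2.37 to 2.65 in crypt organoids, levels that were not tested.

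HoxA genes were measured in both groups. Of 11 on the array, 10 were well above background on each iISC organoid array and 9 on each iHep array, against 11 on each MEF array and 7 on each crypt organoid array. Hoxa10 was at 1.90, 1.69 and 1.66 in iISC organoids, against 0.10, 0.68 and -0.19 in iHep cells (log2 difference 1.55 ± 0.25, adjusted p = 0.0036). The call of Hoxa10 was lost with all 18 arrays in 1 fit (adjusted p = 0.11) and with 17 samples (0.12). Hoxa9 was higher by 1.26 ± 0.35 (adjusted p = 0.025), a call kept without iHep 2 and lost without any other single array (adjusted p up to 0.078). Hoxa11 was at 2.50, 1.71 and 2.40 in iISC organoids and 0.66, 1.62 and 1.57 in iHep cells and was not called (adjusted p = 0.066). On the MEF arrays Hoxa11 lay between 1.59 and 2.35, and on the crypt organoid arrays between -9.02 and -8.57, with none well above background. Tbx15, a factor of skin and limb mesenchyme, was likewise far lower in crypt organoids, at 1.57, 1.64 and 0.98 in iISC organoids, 1.48, 1.45 and 0.45 in iHep cells, 2.20 to 2.39 in MEFs and -8.82 to -7.97 in crypt organoids. Hoxa11 and Tbx15 were named after their values were seen, and levels in MEFs and crypt organoids were not tested against these groups.

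HoxB genes differed within the organoids. Of 10 on the array, 8 were well above background in iISC organoid 2, against 3 in iISC organoid 1 and 2 in iISC organoid 3, and 8, 8 and 9 in the iHep cells. Hoxb7, named after its values were seen, was at -8.75, 3.19 and -8.39 in iISC organoids, against -1.08, -1.05 and -0.69 in iHep cells, so that the organoid arrays lay on both sides of the iHep arrays. No HoxB gene was called in either direction.

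**Figure D5:**
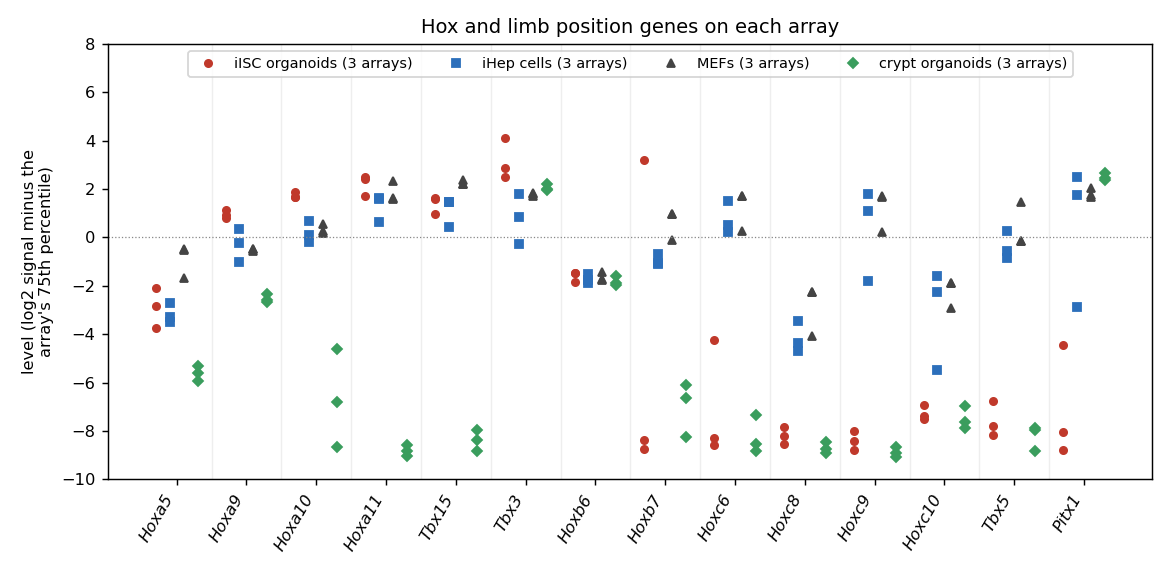
Level (log2 signal minus the array's 75th percentile, vertical axis) of 14 Hox and limb position genes on the 3 arrays each of iISC organoids, iHep cells, MEFs and crypt organoids. Hoxa10, Hoxa11 and Tbx15 are high in iISC organoids, iHep cells and MEFs and low in crypt organoids, Hoxc9 and Tbx5 are low in both organoids, and the 3 iISC organoid values of Hoxb7 spread from -8.75 to 3.19.

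Interferon response genes were higher in iHep cells. Of 32 tested, 28 were called lower in iISC organoids and 0 higher, with a median of -3.21 (24 lower and a median of -2.34 with spike-in scaling). Oas2, an antiviral RNA sensor, was well above background on no iISC organoid array and at 3.56, 3.30 and 3.31 in iHep cells, at least 727.4-fold lower (adjusted p = 3.7e-06). The GTPases Gbp3 and Mx1 were at least 86.4-fold and 40.0-fold lower, and Gbp2 was lower by -8.15 ± 0.62. Among 13 class I antigen presentation genes 8 were called lower and 0 higher, but 1 lower and 2 higher with spike-in scaling. The immunoproteasome subunit Psmb8 was at -3.10, -1.38 and -1.79 in iISC organoids, against 2.26, 2.51 and 1.98 in iHep cells (log2 difference -4.34 ± 0.46). The peptide transporters Tap1 and Tap2 were lower by -1.72 ± 0.28 and -1.87 ± 0.37, neither of them called with spike-in scaling (-0.85 for Tap1).

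Cholesterol synthesis and uptake genes were called higher in iISC organoids for 19 of 24 members and lower for 0, with a median of 2.18. Lss, which forms the sterol ring, was at 3.25, 2.77 and 3.21 in iISC organoids, against -0.32, -0.21 and -0.06 in iHep cells (log2 difference 3.27 ± 0.18, adjusted p = 8.5e-05). The enzymes Dhcr7 and Pmvk were higher by 3.32 ± 0.30 and 3.08 ± 0.31. Cell cycle genes differed less: 17 of 35 were called higher and 0 lower, with a median of 0.99 (33 higher with spike-in scaling and 11 with the mean over probes). Cenpf, a kinetochore protein, differed by 2.16 ± 0.29 and the cyclin Ccna2 by 1.73 ± 0.26, with no overlap of the groups.

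Among single genes, the 10 largest rises outside clones and predicted genes were Defa23, Defa21, Sis, Guca2b, Defa20, Chgb, Defa22, Tm4sf5, Itln1 and Mgam. Guca2b, the gut peptide uroguanylin, was at 6.32, 6.23 and 6.34 in iISC organoids and at least 5200-fold higher. Tm4sf5, a tetraspan membrane protein, was at least 2757-fold higher. The 10 largest falls were Hp, Gkn2, Ahsg, Fgb, Dcn, Kng1, Scara5, Serpina3g, Masp1 and Col1a1. Scara5, a ferritin receptor, and Serpina3g, a protease inhibitor, were well above background on no iISC organoid array and at least 1162-fold and 1471-fold lower than in iHep cells.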

How the data were processed

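RNA of 18 mouse samples was hybridised to single-colour Agilent arrays, and the 3 iISC organoid and 3 iHep arrays were compared here. The deposited scanner files hold a processed signal intensity per spot, background-subtracted by Feature Extraction. The authors' version was 9.5.1.1 per the submitters' processing notes, and per the file headers 9.5.1.1 on iHep and 10.7.1.1 on iISC organoid arrays. The deposited table of the authors' normalized intensity values correlated with quantile-normalized signals at 0.999994 and served as an alternative. Of 41174 gene probes on each array, 41109 had a value on every array, after 66 to 92 outlier spots an array were left out. Probes were named through RefSeq accessions (24806), symbols (6035) or synonyms (1806), while 8462 stayed unnamed. For genes with several probes (8585 of 19701) the brightest over the 6 arrays was used. None of the 60 such genes among those named had a probe differing by 1 or more the opposite way.

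Intensities were put on the log2 scale, log2 of the deposited signal minus each array's 75th percentile, and tested with limma 3.58.1 in R 4.3.3 (lmFit, contrast, eBayes, two-sided, Benjamini-Hochberg). A gene was tested where its probe was well above background on all 3 arrays of at least 1 group. The fit was checked on simulated data. The precision is limited by 3 arrays a group, and an exact permutation of 3 against 3 cannot go below p = 0.1. Named genes were anchors of either fate, up to 4 called genes per list with the largest change, list members called against the list, and the 10 largest rises and falls. The gene lists and the comparison were chosen with earlier results of these data known. Alternatives were quantile normalization, normexp (offset 50), the authors' values, other detection filters, all 18 arrays in 1 fit, the mean over probes, a replicate block, leaving out each array, a log2 difference of 2, and spike-in scaling. Some genes that the rule named are not reported here.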

Additional observations from a re-analysis of the deposited data

How the results depend on the processing

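The counts of genes called in iISC organoids against iHep cells were 5422 in all, 2786 higher and 2636 lower. They stayed within a factor of 1.5 under quantile normalization (5247), normexp (4499), the authors' values (5266), no detection filter (5742), 18 arrays (5700) or 17 samples (5673, the near-identical MEF arrays counted once) in 1 fit, and the mean over probes (5188). With a replicate block, 5293 were called (2719 higher, 2574 lower). No pairing is stated, and the deviations of same-numbered samples correlated at only -0.02 to 0.058. With 3 arrays a group on separate slides, this does not show whether same-numbered samples are linked. Under the block 8 named genes lost their call, among them Pitx1 (adjusted p = 0.055), Vil1 (0.056), Ptgs1 (0.065) and Ace (0.076). Leaving out each array in turn gave 4932 to 5647 calls, 2512 to 2985 higher and 2420 to 2662 lower. Counts changed more when a gene had to be well above background on all 6 arrays (3688 in all, 2092 higher, 1596 lower, from 12050 genes tested), of which only the lower count moved by more than 1.5 times, when a log2 difference of 2 was required (3095 in all, 1390 higher, 1705 lower), and with spike-in scaling, added after seeing the data (8328 in all, 6656 higher, 1672 lower). The first 2 follow from fewer genes tested and the stricter threshold. The cause of the third was not tested. Of 181 named genes 178 were called, and 163 of these stayed called whichever array was left out. Cdh1, not called, changed sign with quantile normalization and with the authors' values (-0.06 in both), and Tyrobp with normexp (-0.03). Foxa1 and Lgr5 were called with spike-in scaling (3.65 and 6.41) and with 18 arrays in 1 fit (2.78 and 5.54). Atp4a, called at 1.23, was at 0.77 without iISC organoid 2. The slide, the scanner and the Feature Extraction version differ with the cell type, and a probe below background gives only a bound.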

Other observations

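Some genes were well above background on a single array of a group. Among genes well above background on each iHep array and on just 1 iISC organoid array, that array was iISC organoid 1 for 222 genes, iISC organoid 2 for 38 and iISC organoid 3 for 94. Of all gene probes, 62.92%, 56.15% and 59.6% were well above background on these arrays, the same order of size as the counts. The brightest in iISC organoid 3 included the chemokines Cxcl5, Ccl2 and Cxcl17, the protease inhibitor Slpi, the surfactant collectin Sftpd and the duodenal factor Pdx1, beside Spp1, Cp, Lbp and Itih2. In iISC organoid 2 they included Hoxb7, Hoxb2, Hoxb8, Hoxb5 and Hoxb4. Conversely, among genes well above background on each iISC organoid array and on just 1 iHep array, Foxa2, Nr1h4 and Foxa1 were among the brightest of the 28 in iHep 1. Afm, an albumin relative, and the complement-related gene Cfhr2 were among those of the 91 in iHep 2. Pax6, an enteroendocrine factor, led the 91 in iHep 3. These genes were chosen after their values were seen. On iHep 1, 2 and 3, 60.99%, 63.6% and 62.44% of gene probes were well above background. What part these shares have in the counts of either group was not tested.

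Promoter windows were searched for each motif. The Hnf1 letters were in 8.01% of 2209 genes called higher in iISC organoids and in 6.26% of 1997 called lower, against 5.94% of 11296 tested genes with a window. The Cdx letters were in 10.4% and 9.26%, against 9.14%. The Hnf4 letters were in 1.18% and 0.501%, against 0.575%, and the Foxa letters in 3.98% and 2.95%, against 3.32%. No test was made of these shares.

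Of 5 tested immune genes, Cd68 was called lower (-1.97 ± 0.27) and Tyrobp higher (at least 1.5-fold) in iISC organoids. These are 20% each way, near the shares over all tested genes (18.5% lower and 19.6% higher). With normexp Tyrobp was at -0.03 and not called. The 3 immune markers summed to 0.0569 to 0.0713 on iISC organoid arrays and 0.159 to 0.293 on iHep arrays, relative to the 75th percentile. Among 7 enteric neuron and glia genes, 2 were called higher (28.6%) and 1 lower (14.3%), few genes to set against those shares. Of these, the calcium-binding protein S100b was higher by 3.29 ± 0.32 and Uchl1 lower by -4.48 ± 0.50.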
